A study of Mus musculus with 2 samples.

Results

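The mevalonate pathway to squalene was examined in small intestine of mice fed EPA and DHA. The group consists of 9 listed genes, Acat2, Hmgcs1, Mvk, Pmvk, Mvd, Idi1, Fdps, Ggps1 and Fdft1, out of the 18193 genes that a probeset (a set of short probes on the array that together read 1 transcript) names alone. Members were taken by gene symbol under a rule that uses no measured value. Of the 9, 8 had a probeset under their symbol and all 8 passed the filter on low signals. Acat2, the cytosolic thiolase of the opening step, had none in the annotation table and is not analysed here. HMG-CoA reductase, the enzyme that makes mevalonate, is not among the listed genes and was not examined. The paper names it among genes of cholesterol metabolism without differential expression. From these same arrays, however, the paper reports that EPA&DHA inhibited the majority of the cholesterol synthesis genes. Its quantitative PCR of the pooled RNA also gave a lower Hmgcs1. The mice were males of the inbred strain C57BL/6J aged 4 months, and both groups received a semisynthetic diet with 20% fat by weight for 4 weeks. Control mice got all of this fat as flaxseed oil, whose main n-3 fatty acid is α-linolenic acid. For the EPA&DHA mice a n-3 concentrate (51% DHA, 6% EPA) made up 44% of the fat and flaxseed oil the remainder. Each group had 12 mice, of which 10 control and 11 EPA&DHA samples passed RNA quality control and were combined into 1 pool per diet, and each pool was read by 1 array. Variation between animals was therefore not measured on the arrays, and nothing here was tested or carries a replicate error.

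The pathway joins acetyl-CoA units in the cytosol into mevalonate, which is phosphorylated and decarboxylated to isopentenyl diphosphate, the building block of all isoprenoids. Prenyltransferases then lengthen the chain to farnesyl diphosphate, where the route divides: squalene synthase directs carbon to cholesterol, and other enzymes make geranylgeranyl groups, dolichol and the tail of ubiquinone. Cells that have little sterol release SREBP transcription factors, which act with NF-Y and Sp1 at the promoters of these genes. The small intestine is one of the main sites of sterol synthesis in the body and also absorbs cholesterol from the diet.

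Signals are MAS 5.0 values in arbitrary units, scaled by the authors to the same trimmed mean on each array. A probeset was kept when its mean signal (geometric mean of the arrays) was at least 50, which left 24461 of 45037 probesets and 11756 genes. The median log2 ratio of EPA&DHA over control was -0.05 over these genes. In place of a replicate error, each log2 ratio is set beside the local SD, a robust SD of the log2 ratios of the 500 kept probesets nearest in signal, which also contains any true difference between the pools. The local SD had a median of 0.61 in the 25% of kept probesets with the lowest signal and 0.24 in the 25% with the highest. RNA integrity, read as the signal at the 3' end of Gapdh over that at its 5' end, was 0.932 for the control pool and 0.793 for the EPA&DHA pool. The same ratio of Actb was 1.22 and 1.16, and its part in the results was not tested. Per the methods the RNA came from epithelium scraped off the gut wall, while the labels name the complete small intestine. Vil1, an actin-bundling protein of the enterocyte brush border, had signals of 24489 in the control pool and 23996 in the EPA&DHA pool. Markers of smooth muscle were also above the filter in 5 of 6 cases, beside 11756 of all 18193 genes. Among them were Acta2, with 851 and 767, and Des, with 116 and 79.3.

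The promoters of 3 members are shown because Hmgcs1 carries a sterol regulatory element, because Mvk has the most NF-Y boxes among the members, and because Ggps1 is the member whose signal was higher on EPA&DHA. The sequences are from RefSeq (GRCm38.p6), run 5′ to 3′ along the gene's strand and end at the base before the gene's outermost annotated start. Capitals mark matches to TCACNCCAC, the core of the sterol regulatory element, and to CCAAT, the NF-Y box, on either strand. The stretches are chr13:119690101-119690350 on the plus strand for Hmgcs1, chr5:114444019-114444263 on the plus strand for Mvk and chr13:14063567-14063738 on the minus strand for Ggps1.
Hmgcs1: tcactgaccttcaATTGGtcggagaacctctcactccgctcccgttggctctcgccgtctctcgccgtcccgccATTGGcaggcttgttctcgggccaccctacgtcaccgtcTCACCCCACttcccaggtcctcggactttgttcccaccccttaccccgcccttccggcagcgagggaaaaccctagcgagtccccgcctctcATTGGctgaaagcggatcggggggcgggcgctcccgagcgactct
Mvk: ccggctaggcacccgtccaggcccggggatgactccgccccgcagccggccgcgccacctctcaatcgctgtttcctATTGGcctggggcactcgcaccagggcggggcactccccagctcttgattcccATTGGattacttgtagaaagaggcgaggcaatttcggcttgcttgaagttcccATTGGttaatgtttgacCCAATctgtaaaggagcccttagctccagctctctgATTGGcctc
Ggps1: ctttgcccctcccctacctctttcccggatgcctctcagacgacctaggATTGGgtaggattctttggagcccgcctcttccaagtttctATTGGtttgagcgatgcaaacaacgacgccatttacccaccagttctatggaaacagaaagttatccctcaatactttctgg

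In the 250 bases before each annotated transcript start, both strands were searched, and overlaps between motifs were not removed. Promoters were found for 7 members, with 2 start sites for Pmvk. TCACNCCAC occurred in 1 of the 7, in Hmgcs1 from 137 bases before the start, whereas 1.05% of all 32851 promoters held it. CCAAT occurred in 6 of the 7 members, in all but Acat2, and in 33.8% of all promoters. Its 5 matches in Mvk include 4 on the strand opposite to the gene that lie exactly 53 bases apart. The stretches between those matches shared only 26.4% to 32.1% of their bases with the next. Hmgcs1 and Ggps1 had 3 matches each, the latter with 1 inside the longer annotated transcript and so not printed. GGGCGG, the Sp1 box, occurred in 5 of the 7 members, Acat2, Hmgcs1, Mvk, Mvd and Idi1, and in 32.7% of all promoters. CACGTG, the E-box, occurred in 0 of the 7 and in 6.02% of all promoters. A match is only a run of letters. Ggps1 and Hmgcs1, with 3 NF-Y boxes each, went in opposite directions by their brightest probesets. Mvk with 5, Mvd and Idi1 with 2 each and Pmvk with 1 were lower by theirs. Any link between the boxes and the signals was not tested.

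**Figure D1:**
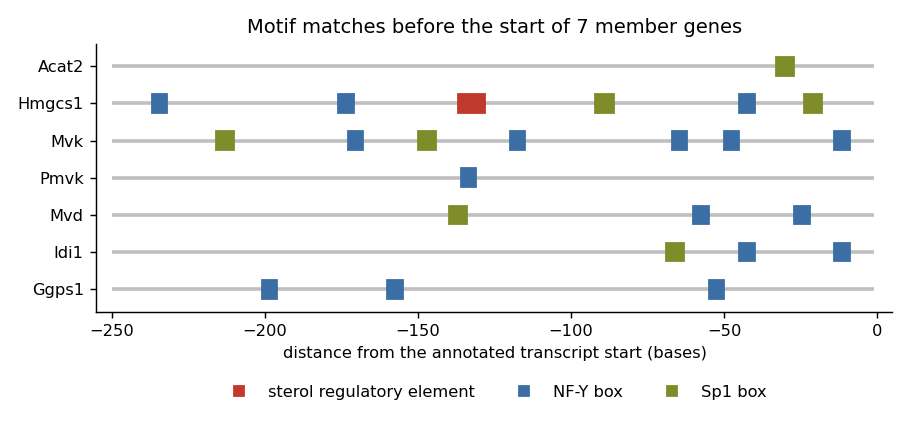
Matches to the sterol regulatory element (red), the NF-Y box (blue) and the Sp1 box (green) in the 250 bases before the annotated transcript start (x axis, distance in bases) of 7 member genes. The 2 windows of Pmvk are drawn on 1 line, and the 1 sterol regulatory element lies in Hmgcs1 while Acat2 has no NF-Y box.

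On EPA&DHA, 7 of the 8 measured members had a lower signal and 6 were at least 1.5-fold lower, against 8.02% of all genes. None was at least 1.5-fold higher, against 6.24% of all genes. The median of the members was -0.82 on the log2 scale, a 1.77-fold lower signal, and single members ranged from -1.18 for Fdps to 0.55 for Ggps1. Past 2-fold, 1 member was lower and 0 were higher, against 2.26% and 1.61% of all genes. For all genes these 2-fold counts were 266 lower and 189 higher, and a loess correction turned them to 209 and 224. In bulk RNA, fewer cells that express a gene and less of its RNA per cell cannot be told apart.

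**Figure D2:**
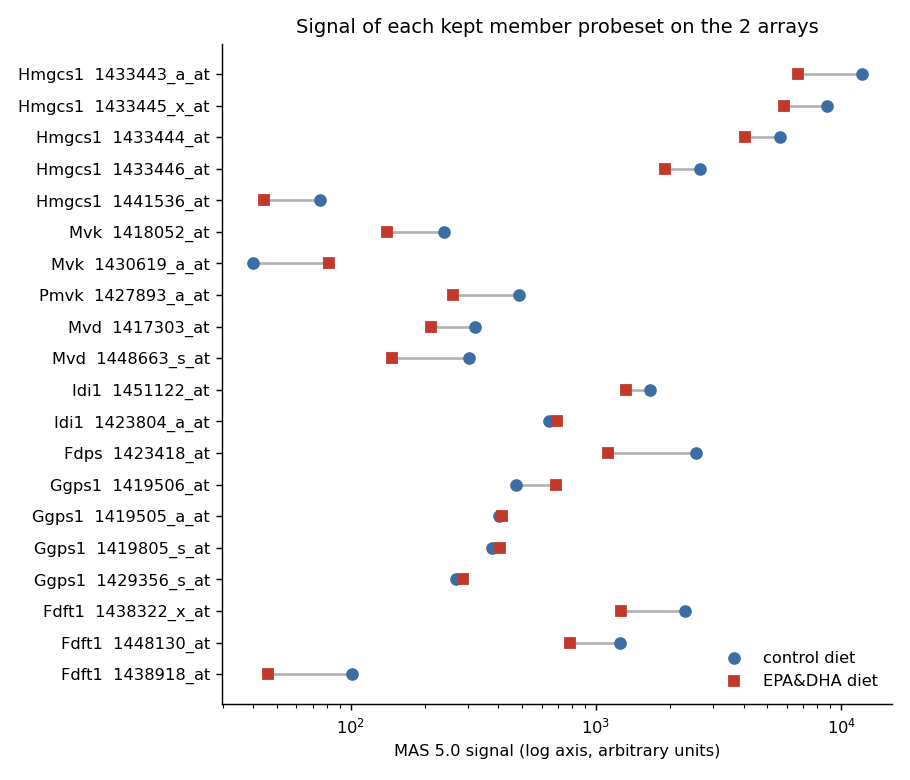
MAS 5.0 signal (x axis, log scale, arbitrary units) of the 20 kept member probesets on the control array (blue circles) and the EPA&DHA array (red squares), in pathway order. The EPA&DHA square lies left of the control circle in 14 of 20 probesets, and the 6 exceptions are the 4 of Ggps1, the dim one of Mvk and the dimmer one of Idi1.

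Hmgcs1 (chr13:119690351-119708260), the cytosolic synthase that adds a further acetyl unit to make HMG-CoA, was read by 5 kept probesets. The brightest read 12153 in the control pool and 6655 in the EPA&DHA pool, 1.83-fold lower, with a log2 ratio of -0.87 and a local SD of 0.23. The next had 8724 and 5867, 1.49-fold lower, on a probeset whose name ending marks probes that may bind related transcripts. Signals of 5604 and 4037 on another probeset made a 1.39-fold lower value, as did 2665 and 1914 on the one after it. A dim probeset with 74.7 and 44.2 was 1.69-fold lower. All 5 thus lay below 0, but the brightest had the largest difference, and the mean of the 5 was -0.63.

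Mvk (chr5:114444264-114460591), the kinase that phosphorylates mevalonate, read 241 in the control pool and 140 in the EPA&DHA pool. This is a log2 ratio of -0.78, less than 2 local SDs of 0.44. Its other probeset went the opposite way, from 39.9 to 81.7, a log2 ratio of 1.03 with a local SD of 0.77. That value is only just above the filter, and with the mean of both probesets Mvk stood at 0.13. The direction of Mvk therefore depends on which probeset is read.

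Pmvk (chr3:89454541-89469014), which adds the next phosphate, was read by 1 probeset. Its signal was 487 in the control pool and 260.0 in the EPA&DHA pool, 1.87-fold lower, with a log2 ratio of -0.91 and a local SD of 0.31. It ranked 348th from the lowest among all genes measured.

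Mvd (chr8:122433596-122443422), the decarboxylase that forms isopentenyl diphosphate, had 320.0 in the control pool and 213 in the EPA&DHA pool. The log2 ratio was -0.59, just past the 1.5-fold threshold, with a local SD of 0.36. On the other probeset, with signals of 304 and 148, it was 2.06-fold lower. Both probesets lay below 0, and the size of the difference was the less certain part.

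Idi1 (chr13:8885606-8892396), the isomerase that turns isopentenyl into dimethylallyl diphosphate, stood closer to 0. Its signal was 1661 in the control pool and 1328 in the EPA&DHA pool, a log2 ratio of -0.32 with a local SD of 0.25. The dimmer probeset had 643 and 693, a log2 ratio of 0.11. Idi1 was the only member with a lower signal that did not reach 1.5-fold, and its probesets disagreed in sign.

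Fdps (chr3:89093588-89101967), the prenyltransferase that makes geranyl and then farnesyl diphosphate, had the largest difference. Its signal was 2549 in the control pool and 1123 in the EPA&DHA pool, 2.27-fold lower, and the log2 ratio of -1.18 was 4.70 times the local SD of 0.25. It was the 156th lowest of the 11756 genes. A further Fdps probeset had signals of 1.27 and 21.7, far under the filter, and its ratio is not interpreted.

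Fdft1 (chr14:63145150-63181687), squalene synthase, takes farnesyl diphosphate into the sterol branch. Its brightest probeset, which may bind related transcripts, had 2317 in the control pool and 1264 in the EPA&DHA pool, 1.83-fold lower with a log2 ratio of -0.87. A probeset without that limit had 1257 and 785, 1.60-fold lower (local SD 0.26). On a dim probeset, with 101 and 46.2, the ratio was -1.13 with a local SD of 0.57. All 3 lay below 0. The last probeset, with 8.91 and 6.26, was under the filter.

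Ggps1 (chr13:14049790-14063566), which lengthens farnesyl diphosphate to the geranylgeranyl group that anchors certain proteins in membranes, was the exception. Its brightest probeset had 472 in the control pool and 689 in the EPA&DHA pool, 1.46-fold higher, a log2 ratio of 0.55 with a local SD of 0.30. The other 3 probesets stood nearer to 0, with log2 ratios of 0.05, 0.10 and 0.11, each smaller than its local SD. The mean of the 4 was 0.20. All lay above 0, and Ggps1 was the only member above 0 by its brightest probeset.

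**Figure D3:**
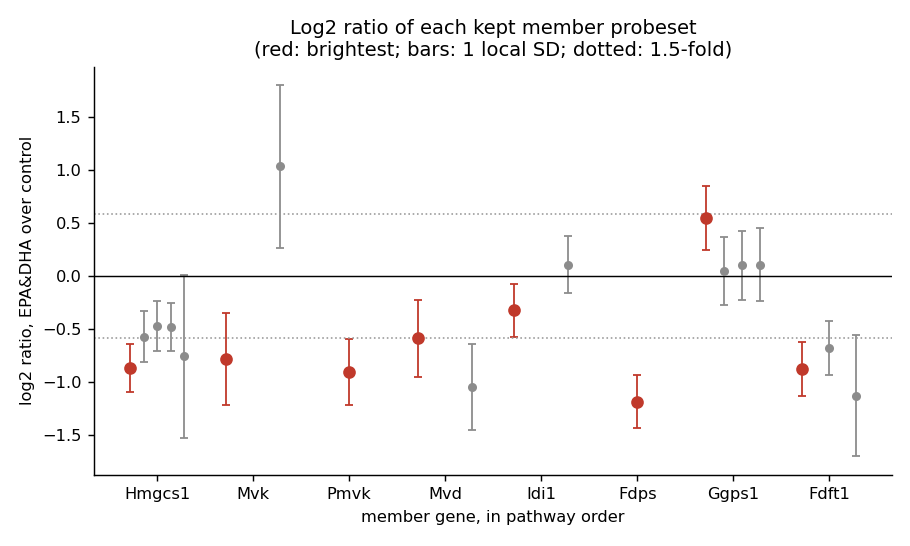
Log2 ratio of EPA&DHA over control (y axis) for every kept probeset of the 8 measured members, in pathway order (x axis), with 1 local SD as the bar. Red marks the brightest probeset of a gene, grey the others, and dotted lines mark 1.5-fold. Red points lie between -1.18 for Fdps and -0.32 for Idi1, apart from 0.55 for Ggps1.

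Over single probesets, 10 of the 20 kept were at least 1.5-fold lower, against 9.01% of all kept probesets, and 1 was at least 1.5-fold higher, against 8.11%. The 1 higher was the dim probeset of Mvk. Of the 6 members with more than 1 kept probeset, Hmgcs1, Mvd and Fdft1 had all of them below 0, Ggps1 all above 0, and Mvk and Idi1 on both sides. Probesets of 1 gene read the same RNA pools and are not replicates of the diet. A further 2 member probesets, of Fdps and Fdft1, did not pass the filter.

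No member changed sign with the scaling of the arrays. After median centring, quantile normalization or a loess correction, the median of the 8 stayed between -0.82 and -0.79, and Fdps between -1.18 and -1.15. Mvd fell short of 1.5-fold under each of these, at -0.55, -0.58 and -0.57, which left 5 members past the threshold. Leaving out probesets that may bind related transcripts moved Fdft1 from -0.87 to -0.68 and no other member.

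**Figure D4:**
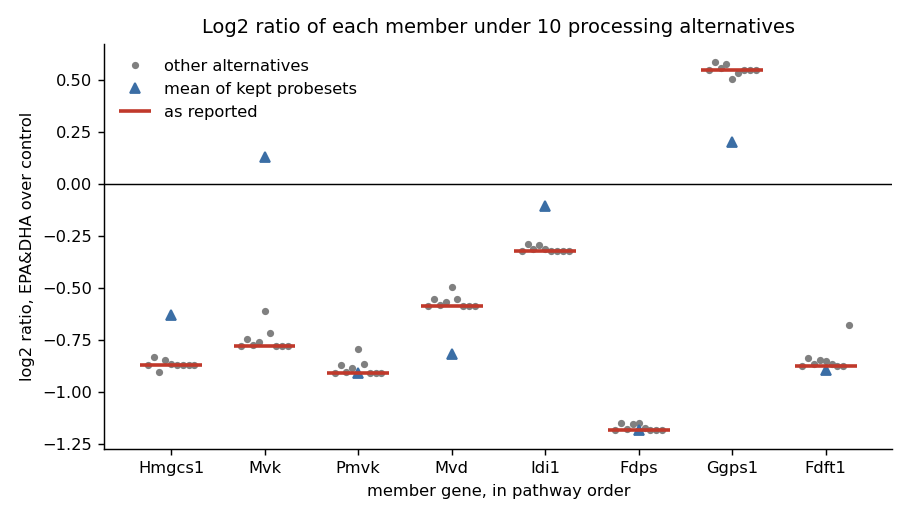
Log2 ratio of EPA&DHA over control (y axis) of the 8 measured members (x axis) as reported (red lines) and under 10 processing alternatives (points). Averaging all kept probesets of a gene (blue triangles) put Mvk at 0.13 and Idi1 at -0.11, while Fdps, read by 1 kept probeset, stood at -1.18.

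Acat1 is the mitochondrial counterpart of Acat2 and acts in ketone body and isoleucine metabolism. Its signals were 7186 in the control pool and 7338 in the EPA&DHA pool, a log2 ratio of 0.03, and its other probesets stood at 0.02 and 0.32. The 2 brighter probesets thus lay near 0. Of 5 paralogues looked up, it was the only one with a kept probeset. Idi2, a paralogue of Idi1, had a probeset under the filter.

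Among genes that carry squalene on to cholesterol, some were lower and others lay near 0. Of 11 measured genes, 4 were at least 1.5-fold lower, against 8.02% of all genes, 0 were at least 1.5-fold higher and 9 lay below 0, with a median of -0.30 beside -0.82 for the members. Sqle, which oxidizes squalene, was 2.34-fold lower, Cyp51, a demethylase of lanosterol, 2.01-fold and Tm7sf2, a sterol reductase, 1.91-fold. By quantitative PCR on individual mice the paper reports Sqle as significantly lower, by a smaller fold than on its arrays. The other Cyp51 probesets were 1.43-fold and 1.25-fold lower. Lss, which closes the rings, was 2.20-fold lower on a probeset that may bind related transcripts, but its other kept probeset, with signals of 118 and 114, stood at -0.05 with a local SD of 0.51, so the value of Lss depends on the probeset. Hsd17b7, a ketosteroid reductase, stood at -0.02. Msmo1, a sterol oxidase, stood at -0.20, and Lbr, which shares its reductase activity with Tm7sf2, at 0.15. The list was thus mixed, with a median nearer to 0 than that of the members. The difference between the lists was not tested.

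The branches that use farnesyl or isopentenyl diphosphate for other products lay close to all genes. Of 13 measured genes, 1 was at least 1.5-fold lower, against 8.02% of all genes, and 0 were higher, with a median of -0.06 beside -0.05 for all genes. The 1 was Fntb, a subunit of the enzyme that attaches farnesyl to proteins, with signals of 219 and 126 and a log2 ratio of -0.79. Its partner subunit Fnta had 3966 and 3960, a log2 ratio of 0.00. Pdss2, which makes the tail of ubiquinone, stood at -0.36. Dhdds, for dolichol, stood at 0.06 on its brightest probeset and at -0.62 and -0.38 on the others, of which the former was 1.54-fold lower. Of the 13, 9 lay below 0 and none was as high as Ggps1.

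Genes that encode SREBP or control its activation were mostly below 0, though few passed the threshold. Of 7 measured genes, 2 were at least 1.5-fold lower, against 8.02% of all genes, and 0 were higher, against 6.24%. Of the 7, 6 lay below 0, and the median was -0.46. Srebf2, which encodes the form that mainly controls this pathway, had signals of 660 and 421 on 1 probeset and 620 and 407 on the other, 1.57-fold and 1.52-fold lower. Scap, which escorts SREBP to the Golgi, had 802 and 492, 1.63-fold lower. The proteases Mbtps1 and Mbtps2, which cut SREBP there, stood at -0.05 and 0.15 by their brightest probesets. Insig1 and Insig2, which hold SCAP and SREBP in the endoplasmic reticulum and so oppose activation, stood at -0.43 and -0.46, and the probesets of Insig2 ran from -0.61 to 0.21. Srebf1 had 2340 in the control pool and 1631 in the EPA&DHA pool, a log2 ratio of -0.52, short of 1.5-fold. The paper reports no differential expression of Srebf1. Any link of these messages to the signals of the members was not tested, and SREBP protein was not measured here.

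Enzymes that supply cytosolic acetyl-CoA and NADPH did not share 1 direction. Slc25a1, the citrate carrier, had 3711 in the control pool and 2695 in the EPA&DHA pool, a log2 ratio of -0.46. Acly, which splits citrate into acetyl-CoA, stood at -0.35 on its brightest probeset and from -0.51 to 0.02 over all 3. Acss2 stood at 0.09 on its brightest probeset, and at 0.51 and, on a dim probeset, 0.90. Of the 5 genes of the list, 3 lay below 0 and 2 above. Me1, the malic enzyme that makes NADPH, had 4047 and 8894, 2.20-fold higher. It was the 1 of 5 genes past 1.5-fold, a rise seen in 6.24% of all genes. The median of the list was -0.12.

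**Figure D5:**
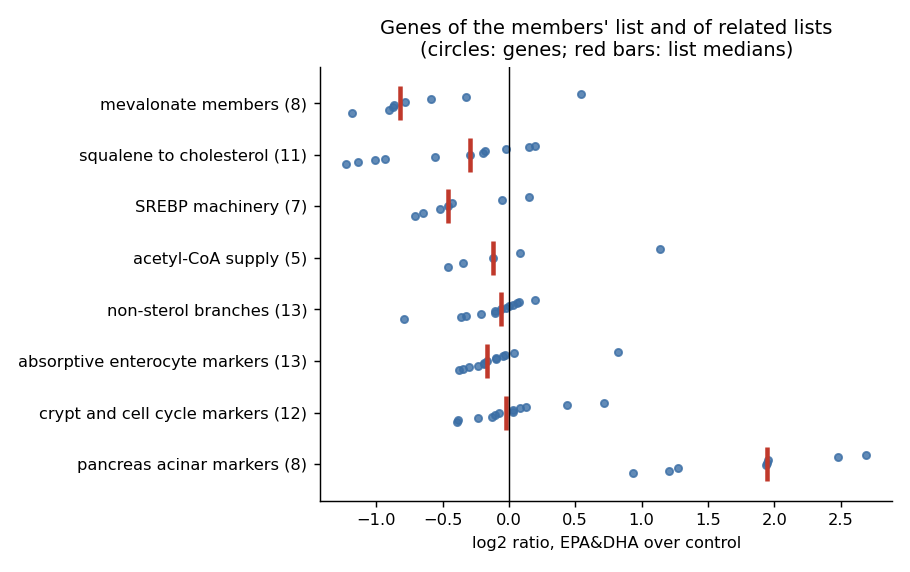
Log2 ratio of EPA&DHA over control (x axis) of each measured gene (circles) in the members' list, 4 related lists and 3 marker lists, each with its number of genes in brackets, and red bars at the list medians. Medians run from -0.82 for the members to -0.06 for the non-sterol branches among the pathway lists, and the pancreas markers lie apart at 1.94.

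Markers of some cell types differed between the pools. Of 13 measured markers of absorptive enterocytes, 1 was at least 1.5-fold higher, Slc15a1 at 0.82, and 0 were lower. Their summed signal was 446438 in the control pool and 391506 in the EPA&DHA pool, and their median was -0.16. Of 12 markers of the crypt and of dividing cells, 1 was at least 1.5-fold higher, the stem cell marker Olfm4, and 0 were lower. Their summed signals were 16342 and 18072, and their median was -0.02. The stem cell markers Lgr5 and Ascl2 stood at -0.39 and -0.38 on their brightest probesets, and at 1.12 and 2.31 on dimmer ones. All 8 measured markers of pancreatic acinar cells were at least 1.5-fold higher, with summed signals of 4143 and 13584. Of 6 markers of B and plasma cells, 3 were at least 1.5-fold lower, Cd79a, Cd79b and Ms4a1, at -0.71, -0.65 and -0.75. Their local SDs were 0.40, 0.38 and 0.38. The summed signal of the 6, carried by Jchain, was 13038 in the control pool and 15992 in the EPA&DHA pool. Of 9 goblet and Paneth cell markers 0 passed 1.5-fold, with a median of -0.28. The same held for 5 markers of smooth muscle, with a median of -0.21. Of 4 T cell markers 1 was at least 1.5-fold higher, Cd3e, and 1 lower, Cd8a. The part of these differences in the lower signals of the members was not tested.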

How the data were processed

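Small intestinal RNA of C57BL/6J mice was pooled per diet by the authors and hybridized to 1 Affymetrix MOE430_2 array each. The deposited values are signals per probeset that the authors summarized with MAS 5.0 (version not given in the sources used here) and scaled to 1 trimmed mean. Such scaling assumes that the arrays are alike on the whole. Detection calls were not used. Of 45101 probesets, 64 controls were set aside, and 34945 of the rest named 1 gene, 932 several and 9160 none. Names came from the platform annotation, and 34741 were updated through gene identifiers to the GRCm38.p6 gene table.

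The arrays were brought to an equal 2% trimmed mean, and log2 ratios of EPA&DHA over control were taken without an offset. Probesets with a mean signal of at least 50 were kept, and each gene was read from its brightest kept probeset that names no other gene. Folds of 1.5 and 2 were counted. All members were named, with genes of related lists chosen by the largest ratios and those nearest 0. Dhdds, Msmo1, Lbr and Insig1 were added for their roles after their values were seen. Members and lists were chosen with earlier results of these data known. The ratio and local SD steps were tested on simulated data. Python 3.11.15, numpy 2.4.6, pandas 2.3.3, scipy 1.17.1, statsmodels 0.14.6 and matplotlib 3.10.9 were used. With 1 array per diet the number of arrays limits the precision.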

Additional observations from a re-analysis of the deposited data

How the results depend on the processing

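Each of the 26 values and counts was computed under 10 alternatives, and of these 260 values 243 moved by less than the local SD or, for counts, by less than 1.5 times. Some of them could not move. The deposited signals already had equal trimmed means, and the changes of the filter left the brightest probeset of each member as it was. With the mean of all kept probesets of a gene, Mvk turned to 0.13, Hmgcs1 moved to -0.63, Ggps1 to 0.20 and the median of the crypt and cell cycle markers to 0.29. The Mvk value rests on its dim second probeset. The median of the members ranged from -0.82 to -0.70 and the count at least 1.5-fold lower from 5 to 6, while the count at least 2-fold lower was 1 throughout.

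Counts over all genes depended on the offset and the filter. With an offset of 50, 483 genes were at least 1.5-fold lower and 413 higher, and 46 and 79 passed 2-fold, while an offset of 16 left 148 at least 2-fold lower. Without a filter these counts were 3552 and 2633 at 1.5-fold and 2229 and 1622 at 2-fold, of 18193 genes. With a mean signal of at least 100 they were 468 and 467, and 68 and 99, of 9789 genes, so that 4.78% of those genes were at least 1.5-fold lower. No paired analysis was possible because each diet had 1 array.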
